A study of Mus musculus with 2 samples.

Results

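Plasma cells, the antibody-secreting end stage of the B cell lineage, were examined in mouse colorectal tumours profiled by droplet single-cell RNA sequencing. They were chosen by their antibody RNA: 52 of 9254 barcodes qualified, of which 26 came from the cKO library and 26 from the WT library. The cKO library held tumours of Mtch2fl/fl VilCre mice, which lack Mtch2 where Villin-driven Cre is active, in the intestinal epithelium, and the WT library held tumours of Mtch2fl/fl mice without Cre. Mtch2 encodes a protein of the outer mitochondrial membrane. All mice had received AOM-DSS, that is, azoxymethane, a carcinogen, with dextran sulfate sodium, which injures the colon lining. Both libraries carried the floxed alleles, and the ages, sexes and numbers of the mice are not given in the labels. Tumours were pooled per genotype into 1 library each, so there is no replicate of either genotype and no test of genotype was possible. Every interval given is a 95% interval for counting error only, and says nothing of the spread between mice.

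A plasma cell gives over a large share of its transcription and translation to a single antibody. The chains enter the endoplasmic reticulum (ER), where they are folded, joined by disulfide bonds and given sugar chains, and misfolded copies are sent back out and degraded. In the gut most plasma cells make immunoglobulin A (IgA), which is joined into dimers by the J chain and carried across the epithelium by the polymeric immunoglobulin receptor. The transcription factor XBP1, made in its active form after the ER sensor IRE1 splices its RNA, drives much of the ER machinery in these cells.

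Barcodes were first kept if they had at least 500 detected genes, at least 1000 unique molecular identifiers (UMIs, counted RNA molecules) and at most 25% mitochondrial UMIs. A kept barcode was called a plasma cell if Igkc, Igha, Jchain, Ighm, Ighg2b, Ighg2c and Iglc2 together made up at least 5% of its UMIs, if Mzb1, Derl3 and Tnfrsf17 together had at least 3 UMIs, and if Ms4a1, which encodes the B cell surface protein CD20, had none. These values chose the cells and are given below as descriptions. Plasma cells were 0.637% of kept cKO barcodes (26 of 4084, exact Clopper-Pearson interval 0.416 to 0.931%) and 0.503% of kept WT barcodes (26 of 5170, 0.329 to 0.736%). The intervals overlap. B cells, called by at least 1 Ms4a1 UMI, at least 2 UMIs of Cd79a and Cd79b and under 5% antibody UMIs, numbered 273 in the cKO library and 46 in the WT library. There were thus 0.0952 plasma cells per B cell in the cKO library and 0.565 in the WT library.

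Some barcodes lay near the limits of this rule, more of them in the WT library. Among the members, 2 cKO and 5 WT cells had between 5 and 10% of their UMIs in the 7 antibody genes. Members with only 3 to 5 UMIs of Mzb1, Derl3 and Tnfrsf17 together numbered 0 in the cKO and 5 in the WT library. Just outside, 1 cKO barcode had 3.61% and 1 WT barcode had 4.29% with enough secretory UMIs. A further 2 cKO and 9 WT barcodes passed the antibody limit but had under 3 UMIs of Mzb1, Derl3 and Tnfrsf17, all of them at 2130 UMIs or fewer. In the WT library 2 barcodes with 56.5 and 59.8% antibody UMIs were left out because each held 1 Ms4a1 UMI. Counting every antibody gene in place of the 7 added no cell.

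The targeted gene Mtch2 had 27.6 UMIs per 1000000 non-antibody UMIs in the other cells of the cKO library and 89.2 in those of the WT library, the direction its labels give. The plasma cells were deeply sampled. Median depth was 23865.5 UMIs in cKO plasma cells (3931 to 79889) and 23278.5 in WT plasma cells (1123 to 51815). Median detected genes were 3289 in cKO and 3468 in WT plasma cells. The deepest cell of each library stood apart: it held 19.1% of the non-antibody UMIs of the cKO plasma cells and 15.1% of those of the WT plasma cells. These 2 cells also held 70 and 100 UMIs of the epithelial gene Epcam, and the doublet caller Scrublet marked the cKO one, and no other plasma cell, as a doublet. Cells are numbered below by depth within their library, the deepest being cell 1. Per 1000000 non-antibody UMIs, Epcam was at 969 in cKO cell 1 and 2067 in WT cell 1. It was higher in cKO cell 5 (1560) and WT cell 25 (2560). Epithelial markers together made up 0.471% of the non-antibody UMIs of cKO cell 1 and 0.651% of those of WT cell 1. The highest shares were 0.847% among cKO and 1.02% among WT plasma cells, in other cells. The matrices shared 22 barcode sequences, none of them a plasma cell's.

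Antibody RNA made up a similar share of the plasma cells in both libraries. Over 393 antibody genes, Jchain included, the median share was 54.6% of a cell's UMIs in the cKO library (5.88 to 70.5%) and 52.2% in the WT library (5.23 to 69.1%). Igkc, the kappa light chain constant region (GRCm38 chr6:70726435-70726966), took 27.2% of all UMIs of cKO plasma cells and 30.7% of those of WT plasma cells. Igha, the IgA heavy chain (GRCm38 chr12:113254830-113260236), took 7.91% of UMIs in cKO and 8.28% in WT plasma cells. Jchain took 4.31% of UMIs in cKO and 4.29% in WT plasma cells. Light chain UMIs outnumbered heavy chain UMIs in most cells, with a median heavy to light ratio of 0.274 in cKO and 0.253 in WT cells. The ranges of both libraries overlapped almost fully for each of these shares.

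**Figure D1:**
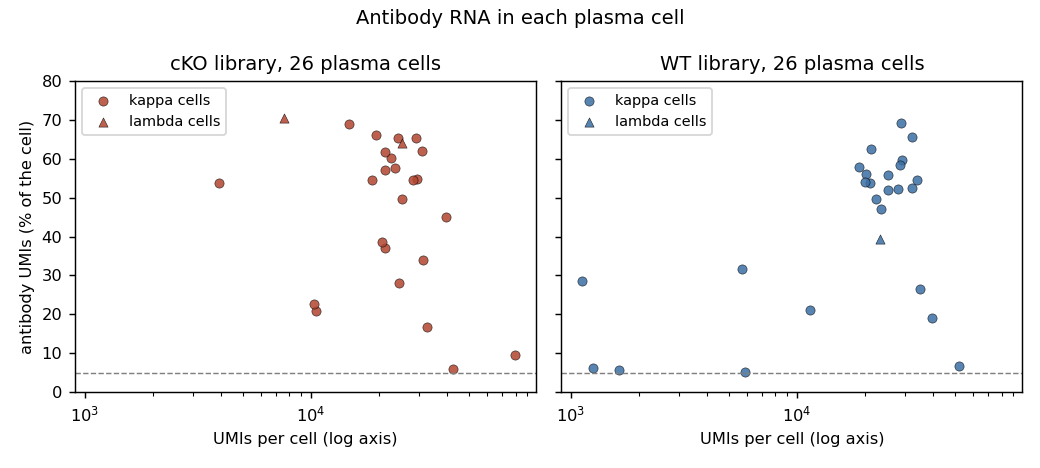
Share of UMIs from antibody genes (vertical axis, percent of the cell's UMIs) against UMIs per cell (horizontal log axis) for each plasma cell, cKO on the left and WT on the right, with circles for kappa and triangles for lambda cells; the dashed line is the 5% limit, which was applied to 7 of the antibody genes. The medians are 54.6% in cKO and 52.2% in WT cells, and the deepest cell of each library lies below 10%.

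Antibody RNA was also present at a low level in barcodes of other cells, and its source was not tested. Epithelial barcodes, with at least 20 UMIs of epithelial markers and no Ptprc, had 26.8 Igha UMIs per 1000000 UMIs in the cKO library and 34.2 in the WT library. At least 1 Igha UMI was seen in 55.3% of the cKO epithelial barcodes, at a median of 32125.5 UMIs, and in 50.7% of the WT ones, at a median of 14988 UMIs. Plasma cells had 79109 Igha UMIs per 1000000 UMIs in the cKO library and 82757 in the WT library. The makeup differed: Igkc UMIs per Igha UMI were 1.58 in cKO and 1.86 in WT epithelial barcodes, against 3.44 in cKO and 3.70 in WT plasma cells. Igha UMIs per Jchain UMI were 5.13 in cKO and 4.90 in WT epithelial barcodes, against 1.84 in cKO and 1.93 in WT plasma cells. Barcodes of other cells with under 3000 UMIs had a median antibody share of 0.0444% in the cKO library and 0.0606% in the WT library.

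The plasma cells were almost all of the IgA class. A cell was given a heavy chain class when 1 constant region gene had at least 10 UMIs and at least 70% of the heavy chain UMIs. By this rule 26 of 26 cKO cells (100%, exact Clopper-Pearson interval 86.8 to 100%) and 24 of 26 WT cells (92.3%, 74.9 to 99.1%) were IgA. IgA cells held between 367 and 3641 Igha UMIs in the cKO library (median 2033.5) and between 12 and 4142 in the WT library (median 2300). The single IgM cell was WT cell 1, with 31 Ighm UMIs of 35 heavy chain UMIs and 100 Epcam UMIs. The remaining WT cell, cell 25 with 1250 UMIs, had 10 heavy chain UMIs, 9 of them Igha, and so no class at 10 UMIs.

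No plasma cell was led by an IgG, IgD or IgE heavy chain in either library, and 0 of 26 cells allows a share of up to 11.5% by 3 counts of the total and up to 13.2% by the exact Clopper-Pearson interval. Ighd, Ighg1, Ighg2c and Ighe had 0 UMIs in the plasma cells of both libraries. UMIs of other classes did occur inside IgA cells. Ighg2b, an IgG heavy chain, had 5 or more UMIs in 5 of 26 cKO IgA cells (5 to 21 UMIs) and in 7 of 24 WT IgA cells (9 to 59 UMIs). Ighm had 5 or more UMIs in 2 cKO IgA cells (9 and 20 UMIs) and in 4 WT IgA cells (12 to 100 UMIs). Ighg3 had 33 UMIs in 1 cKO cell and none elsewhere. No IgA cell held 5 or more UMIs of both Ighm and Ighg2b. Plasma cells had 117 Ighg2b UMIs per 1000000 UMIs in the cKO library and 325 in the WT library, and epithelial barcodes had 0.0636 in the cKO and 0.602 in the WT library. Scrublet marked none of these cells as a doublet.

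Light chains were mostly kappa. With at least 70% of the light chain UMIs from 1 type, 24 of 26 cKO cells (92.3%, exact Clopper-Pearson interval 74.9 to 99.1%) and 25 of 26 WT cells (96.2%, 80.4 to 99.9%) were kappa, and 2 cKO cells and 1 WT cell were lambda. The lambda cells used different constant regions: cKO cell 11 had 11067 Iglc1 UMIs against 1 Igkc UMI, cKO cell 25 had 1981 Iglc3 UMIs against 2 Igkc UMIs, and WT cell 14 had 6916 Iglc1 UMIs against 24 Igkc UMIs. The choice of members counted Iglc2 but not Iglc1 or Iglc3, so lambda cells met the antibody limit mainly through their heavy and J chains.

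Many kappa cells also carried Iglv1, a variable segment of the lambda locus. In kappa cells of the IgA class its median was 12 UMIs in the cKO library, where the highest cell had 177, and 27 in the WT library, where the highest had 491. Summed over all kappa cells, Iglv1 had 675 UMIs in the cKO library and 2036 in the WT library, while all kappa variable segments had 3162 and 2171 in the cKO and the WT library. Iglv1 exceeded the leading kappa segment in 2 of 24 cKO and 8 of 25 WT kappa cells. Its usual partner Iglc1 stayed low in the same cells, with 296 UMIs in the cKO library and 131 in the WT library, against 178858 and 179461 UMIs of Igkc. In WT cell 5, for example, Iglv1 had 491 UMIs, Iglc1 had 0 and Igkc had 14588.

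**Figure D2:**
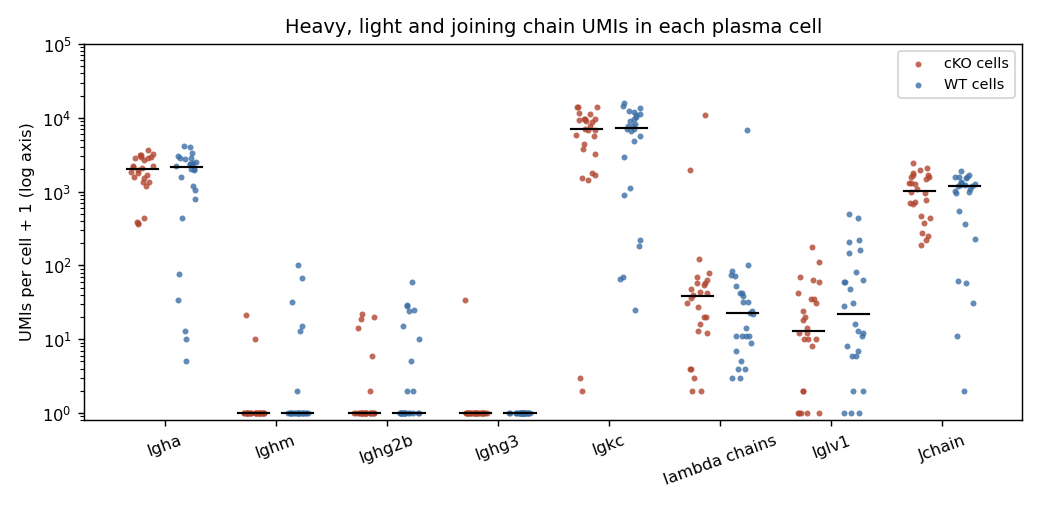
UMIs per cell plus 1 (vertical log axis) of heavy, light and joining chain genes in each plasma cell, cKO to the left of WT for each gene, with lambda chains as the sum of Iglc1, Iglc2 and Iglc3; points are cells and black lines are medians. Igha, Igkc and Jchain are high in nearly all 52 cells, Ighm, Ighg2b and Ighg3 are at 0 in most, and Iglv1 reaches 177 UMIs in cKO and 491 in WT kappa cells.

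Variable segments, which give each antibody its binding site, differed from cell to cell. A leading heavy chain segment, with at least 5 UMIs and at least 50% of those of its kind, was found in 26 cKO and 20 WT cells, with 15 and 18 different segments in the cKO and the WT library. A leading light chain segment was found in 26 cKO cells (16 different) and in 22 WT cells (19 different). Class and both segments were known for 26 cKO and 19 WT cells, which had 23 and 17 different combinations in the cKO and the WT library. Close relatives among the segments can share reads, so single assignments are uncertain.

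Cells with the same class and the same pair of segments were 5 of 26 in the cKO library (19.2%) and 3 of 19 in the WT library (15.8%). Ighv2-5 with Igkv1-117 was found in cKO cells 2, 23 and 24. These 3 cells had 390, 367 and 372 Igha UMIs, and antibody shares of 5.88, 20.8 and 22.7%, all below the library's median of 54.6%. Ighv1-64 with Igkv8-24 was found in cKO cells 8 and 9, with 65.5 and 54.5% antibody UMIs. Ighv1-9 with Igkv8-24 was found in WT cells 7, 16 and 23, with 59.8, 62.5 and 31.6% antibody UMIs. The junctions that would mark a clone are not in gene counts, so a shared pair does not show shared descent.

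RNA that tells male from female cells was examined in the same groups, because the pools could hold several mice. Xist, transcribed from the inactive X chromosome of female cells, had 0 UMIs in all 5 cKO cells that shared a pair, which held between 1 and 34 UMIs of Y-linked genes. The 3 WT cells that shared a pair held 7, 6 and 5 Xist UMIs and 0, 1 and 2 Y-linked UMIs. Over all plasma cells, 4 cKO cells had Xist alone, 13 had Y-linked genes alone, 3 had both and 6 had neither. In the WT library 11 cells had Xist alone, 6 had Y-linked genes alone, 7 had both and 2 had neither. Ighv3-6 with Igkv2-137 was the single pair seen in both libraries, in cKO cell 3 and WT cell 18. Igkv1-117 led in 6 cKO cells and in no WT cell, and Ighv1-64 in 4 cKO cells and in no WT cell, while Igkv8-24 led in 3 cells of each library.

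The markers of the plasma cell label were present. Levels of other genes are given as CPM, that is, UMIs per 1000000 non-antibody UMIs, summed over the plasma cells of a library, because antibody RNA otherwise dilutes every other gene. Mzb1, an ER protein that assists IgM and IgA assembly, was found in all 52 cells, with 3404 CPM in cKO plasma cells and 3452 in WT plasma cells. Derl3, part of the ER degradation channel, had 359 CPM in cKO and 344 in WT plasma cells. Tnfrsf17, which encodes BCMA, a receptor for plasma cell survival factors, had 153 CPM in each library. These genes and Jchain and Igha chose the cells, so their levels support nothing further. CD138, the usual surface marker, is encoded by Sdc1, which the rule did not use, and it had 230 CPM in cKO and 257 in WT plasma cells.

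Other receptors and signalling genes were far above the other cells of the same library. The 20 non-antibody genes with the largest ratios in the library where the ratio was smaller hold Tnfrsf17, Mzb1 and Derl3, which the rule used and whose ratios it fixed. Among the remaining 17 is Ccr10, the receptor by which IgA cells follow CCL28 into mucosal tissue. Ccr10 had 238 CPM in cKO plasma cells and 0.108 in the other cKO cells, against 200.3 in WT plasma cells and 0.0912 in the other WT cells, and 0 UMIs in B cells of both libraries. Prg2, a granule protein best known from eosinophils, had 116 CPM in cKO plasma cells and 138 in WT plasma cells, and at most 0.0547 in other cells. The same 20 genes hold Tnfrsf13b, which encodes the receptor TACI (245 CPM in cKO and 319 in WT plasma cells), and Slamf7, a surface receptor of plasma cells (274 CPM in cKO and 335 in WT plasma cells).

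Calcium channel subunits, ER proteins and regulators complete that group. Cacna1s had 306 CPM in cKO and 260 in WT plasma cells, and Cacna1e had 404 in cKO and 457 in WT plasma cells. Both encode pore subunits of voltage-gated calcium channels. Tram2, a translocation-associated ER membrane protein, had 261 CPM in cKO and 241 in WT plasma cells. St6gal1, which adds sialic acid to antibody sugar chains, had 388 CPM in cKO and 479 in WT plasma cells. Eaf2, a transcription elongation factor partner, had 660 CPM in cKO and 889 in WT plasma cells. The others were Lax1, Pou2af1, Vpreb3, Pik3cg, Rhobtb1, Tmem154, Ly6c2 and Ly6k. Ly6k was found in 4 cKO cells and in 1 WT cell, so its level is that of few cells. Some are shared with B cells: Vpreb3 had 187 CPM in cKO plasma cells against 169 in cKO B cells, and 232 in WT plasma cells against 158 in WT B cells. Pou2af1 had 219 CPM in cKO B cells and 240 in WT B cells, against its plasma cell levels below.

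Transcription factors of the plasma cell state were present in both libraries. In the list of 10 regulators 9 were measured, that is, reached 50 CPM in either library, and 8 of these were at least 2-fold above the other cells in both libraries, as were 13.6% of all 4233 genes measured. Xbp1 had 1570 CPM in cKO plasma cells and 2047 in WT plasma cells, a log2 ratio of -0.38 (exact conditional interval -0.55 to -0.22). By cell, Xbp1 ran from 0 to 6432 CPM with a median of 1563 in cKO cells, and from 0 to 5492 with a median of 2195 in WT cells. The cells of both libraries overlapped, and the mean of the per-cell levels gave a log2 ratio of 0.010.

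Prdm1, which encodes BLIMP1, the repressor that ends the B cell programme, had 272 CPM in cKO and 366 in WT plasma cells (log2 ratio -0.43, -0.83 to -0.04). Irf4, needed for plasma cell formation, had 282 CPM in cKO and 322 in WT plasma cells. Pou2af1, a B cell coactivator, had 364 CPM in cKO and 576 in WT plasma cells, and Zbtb20, a factor for plasma cell survival, had 314 in cKO and 548 in WT plasma cells. These were the 2 of the 9 regulators that were lower by 1.5-fold or more, with log2 ratios of -0.66 (-0.99 to -0.33) and -0.80 (-1.15 to -0.46), and none was higher by that much. Over all 4233 genes measured, 16.3% were higher by 1.5-fold or more in cKO plasma cells and 15.9% were lower. Tent5c, a poly(A) polymerase that acts on antibody mRNA, had 591 CPM in cKO and 635 in WT plasma cells.

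The B cell programme was lower than in B cells and silent in part. Its 19 genes summed to 5370 CPM in cKO plasma cells and 4276 in WT plasma cells, against 20237 in B cells of the cKO library and 17392 in those of the WT library. Of the 9 genes measured, 6 were at least 2-fold under the B cells in both libraries, and none was 2-fold above. Among all 4233 genes measured, 192 were under and 497 above by that much in both libraries. Both groups were chosen on Ms4a1 and antibody RNA, and the B cells also on Cd79a and Cd79b. The contrast therefore describes the groups and is not a test. Pax5, Ciita, Spib, Cd22 and Cr2 had 0 UMIs in the plasma cells of both libraries. Pax5 is the factor that holds B cell identity, and Ciita drives the class II antigen presentation genes. Cd79a, a signalling chain of the B cell receptor, remained at 528 CPM in cKO and 670 in WT plasma cells. Ebf1, an early B cell factor, had 87.1 CPM in cKO plasma cells (33 UMIs) and 34.4 in WT plasma cells (11 UMIs). B cells of the cKO library had 3931 CPM of Ebf1 and those of the WT library had 3745.

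The class II genes H2-Aa, H2-Ab1 and H2-Eb1 were higher in cKO plasma cells through 1 deep cell, cKO cell 2. H2-Aa had 509 CPM in cKO plasma cells and 131 in WT plasma cells, a log2 ratio of 1.94 (1.47 to 2.47). Of its 193 cKO UMIs, 177 lay in cKO cell 2, and of its 42 WT UMIs, 34 lay in WT cell 21. In the other 25 cells of each library H2-Aa had 4 UMIs at most. H2-Ab1 had 710 CPM in cKO and 213 in WT plasma cells, and H2-Eb1 had 573 in cKO and 169 in WT plasma cells. Most of their cKO UMIs also lay in cKO cell 2, with 213 and 173 UMIs. WT cell 21 held fewer of them, 13 and 21 UMIs. Without the 2 deepest cells of each library the log2 ratio was -1.82 for H2-Aa, -0.49 for H2-Ab1 and -0.29 for H2-Eb1. That set leaves out cKO cell 2 but keeps WT cell 21, which held most of the WT H2-Aa UMIs. Cd74, the invariant chain of class II molecules, had 2386 CPM in cKO and 2423 in WT plasma cells.

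Cell 2 of the cKO library also had the lowest antibody share of that library and carried Ighv2-5 with Igkv1-117 like 2 shallower cells. WT cell 21 also held 30 UMIs of the macrophage gene Lyz2, and markers of other cell types made up 1.26% of its non-antibody UMIs. Scrublet marked neither of these cells as a doublet.

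Genes of the secretory machinery were well above the other cells in both libraries. They were described with 7 lists, which together hold 127 genes, of which 119 were measured. In all, 70 of the 119 were at least 2-fold above the other cells of the same library in both libraries, against 13.6% of the 4233 genes measured. The cells were chosen on antibody RNA, so this contrast describes them and is not a test. The summed level of the lists was 53693 CPM in cKO plasma cells and 61170 in WT plasma cells, against 18221 in the other cKO cells and 18810 in the other WT cells. When levels were taken per 1000000 of all UMIs, antibody included, all plasma cell levels shifted by -0.79 in the cKO and -0.87 in the WT library on the log2 scale, and 39 genes of 107 measured stayed 2-fold above.

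Translocation into the ER is the first step. In its list 17 of 23 measured genes were 2-fold above the other cells in both libraries, beside 13.6% of all genes measured. Ssr4, a subunit of the translocon-associated complex, had 2037 CPM in cKO and 2642 in WT plasma cells. Sec11c, a catalytic subunit of signal peptidase, had 1963 CPM in cKO and 2564 in WT plasma cells. Sec61b, part of the channel itself, had 1254 CPM in cKO and 1308 in WT plasma cells. The oligosaccharyltransferase list, whose enzyme attaches sugar chains, had 5 of 11, led by Krtcap2 with 786 CPM in cKO and 764 in WT plasma cells.

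Chaperones and disulfide enzymes followed, with 20 of 26 measured genes 2-fold above the other cells, beside 13.6% of all genes measured. Hsp90b1, which encodes the ER chaperone GRP94, had 6542 CPM in cKO and 6814 in WT plasma cells, against 704 in the other cKO cells and 681 in the other WT cells. By cell it ran from 0 to 67706 CPM with a median of 4629 in cKO cells, and from 0 to 21549 with a median of 3412 in WT cells. Hspa5, which encodes the chaperone BiP that binds free heavy chains, had 2647 CPM in cKO and 3393 in WT plasma cells. Txndc5, a disulfide isomerase, had 1037 CPM in cKO and 1518 in WT plasma cells. Creld2, another ER protein of disulfide exchange, had 684 CPM in cKO and 845 in WT plasma cells.

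Degradation of misfolded chains was 2-fold above the other cells in 13 of 17 measured genes, and N-glycan processing in 5 of 8. Transport from the ER to the Golgi had 6 of 24, and the sensors and effectors of the unfolded protein response had 4 of 10. Among all genes measured the share was 13.6%. Edem1, a lectin that picks out misfolded glycoproteins, had 639 CPM in cKO and 1124 in WT plasma cells, against 59.0 in the other cKO cells and 62.3 in the other WT cells. Man1a, a Golgi mannosidase, had 1132 CPM in cKO and 1158 in WT plasma cells. Atf6, an ER sensor, had 813 CPM in cKO and 754 in WT plasma cells. Ddit3, which encodes CHOP, a factor of the death arm of that response, was at 55.4 CPM in cKO and 84.5 in WT plasma cells, close to the other cells by log2 ratios of 0.13 in the cKO and 0.34 in the WT library.

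**Figure D3:**
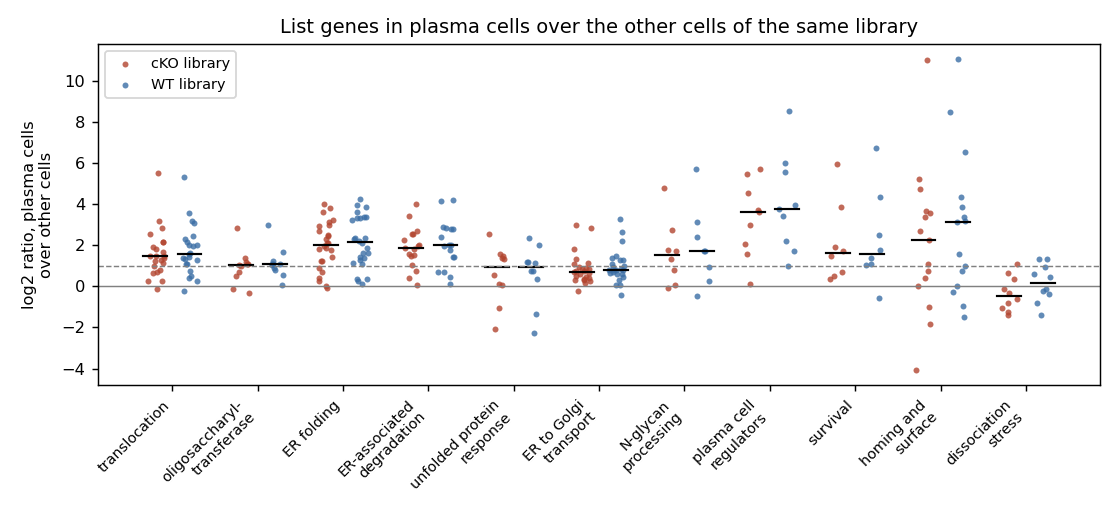
Log2 ratio of plasma cells over the other cells of the same library (vertical axis) for the measured genes of 11 lists, cKO to the left of WT; points are genes, black lines are medians, and the dashed line marks a 2-fold difference. Translocation, ER folding and ER-associated degradation lie mostly above the line in both libraries, while the stress list lies around 0.

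The promoters of these genes were read for the ER stress response element (ERSE), the site through which ATF6 and XBP1 act on chaperone genes. It was searched on both strands as CCAAT, any 9 bases and CCACG, in the 300 bases from 250 before to 50 after the RefSeq start. Of 27025 genes with a promoter in the RefSeq table, 37 (0.137%) held it. Of the 127 genes in the secretory lists 106 were matched, and 9 of them (8.49%) held it, 8 of these among the 23 matched folding genes: Hspa5, Hsp90b1, Calr, Canx, Dnajc3, Creld2, Pdia6 and Ero1b. The ninth was Syvn1, the ubiquitin ligase of ER-associated degradation. The 3 shown are the holders with the largest level over the other cells, taking the smaller ratio of the 2 libraries. They are RefSeq sequences on the gene's own strand, 5′ to 3′, with the ERSE in capitals.
Creld2 (GRCm38.p6 chr15:88819396-88819695, plus strand): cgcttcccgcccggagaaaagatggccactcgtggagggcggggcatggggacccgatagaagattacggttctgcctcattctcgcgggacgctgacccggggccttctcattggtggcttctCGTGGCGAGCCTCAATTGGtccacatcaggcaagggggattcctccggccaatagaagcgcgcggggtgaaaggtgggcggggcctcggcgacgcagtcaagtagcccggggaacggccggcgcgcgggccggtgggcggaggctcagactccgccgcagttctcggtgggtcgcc
Hsp90b1 (GRCm38.p6 chr10:86705395-86705694, minus strand): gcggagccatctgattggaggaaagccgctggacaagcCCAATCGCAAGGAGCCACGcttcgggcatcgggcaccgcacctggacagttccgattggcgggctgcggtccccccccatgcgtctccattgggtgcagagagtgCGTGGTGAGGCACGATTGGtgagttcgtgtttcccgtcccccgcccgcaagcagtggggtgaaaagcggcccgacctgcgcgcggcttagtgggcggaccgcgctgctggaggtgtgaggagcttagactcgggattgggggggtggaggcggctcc
Ero1b (GRCm38.p6 chr13:12565633-12565932, plus strand): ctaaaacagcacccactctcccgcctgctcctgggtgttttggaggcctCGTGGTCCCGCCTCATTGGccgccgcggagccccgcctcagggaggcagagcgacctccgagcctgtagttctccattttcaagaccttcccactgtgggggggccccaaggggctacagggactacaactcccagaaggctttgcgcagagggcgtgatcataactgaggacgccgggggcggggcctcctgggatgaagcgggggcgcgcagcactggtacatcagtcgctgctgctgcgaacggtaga

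Hsp90b1 holds the element at 2 places, and in Creld2 and Ero1b it reads on the opposite strand. Creld2 stood above the other cells by log2 ratios of 3.80 in the cKO and 4.23 in the WT library. Hsp90b1 did so by 3.22 in the cKO and 3.32 in the WT library. Ero1b, an oxidase that renews disulfide bonds and is named Ero1lb in the files, did so by 2.51 in the cKO and 3.87 in the WT library. The core of the unfolded protein response element, TGACG followed by TGG, stood in promoters of 193 genes (0.714%). These included 9 of the 106 matched secretory genes, among them Txndc5, Txndc11, Vcp, Sec24d and Copb2. Pou2af1 held this core too. The octamer of immunoglobulin promoters, ATGC followed by AAAT, stood in promoters of 532 genes (1.97%), with 1 of the 106, Sec61g, among them. These matches describe letters in a window and not binding.

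Between the libraries the secretory lists differed by small ratios, most of them lower in cKO plasma cells. Of the 119 measured genes 1 was higher and 11 were lower by 1.5-fold or more in cKO plasma cells, against 16.3% higher and 15.9% lower among all genes measured. By any amount 35 were higher and 84 lower. The interval excluded no difference for 3 of the higher and 27 of the lower genes, against 506 and 440 of all 4233 genes measured. The median log2 ratio of the secretory genes was -0.20, and that of all measured genes was 0.00 to 2 decimals. The lower level depended on few cells: the median was -0.11 without the deepest cell of each library, -0.01 with at least 10% antibody UMIs per cell and -0.01 with the mean of the per-cell levels, each over the genes that then reached 50 CPM. The summed level differed by -0.19 on the log2 scale, and by 0.049 with at least 10% antibody UMIs. At that stricter limit 7 of 119 secretory genes were higher and 11 lower by 1.5-fold, beside 15.2% higher and 18.5% lower among all genes measured. The limit, applied to the 7 antibody genes, also left out the lambda WT cell 14. This cell had 9.22% of its UMIs in those genes but 39.4% in all antibody genes. It also had the highest Hsp90b1 level of the WT cells, 21549 CPM.

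The genes lower by 1.5-fold were spread over several steps. In the degradation list 3 of 17 were lower, a share near the 15.9% of all measured genes: Edem1 (log2 ratio -0.81, -1.06 to -0.58), Erlec1, a lectin of the same step (187 CPM in cKO and 310 in WT plasma cells, -0.72), and Syvn1. Syvn1 had 84.4 CPM in cKO plasma cells and 191 in WT plasma cells, a log2 ratio of -1.17 (-1.84 to -0.54). It was found in 14 of 26 cKO cells and 20 of 26 WT cells. Of the folding genes only Erp29, an ER protein of the disulfide isomerase family, was lower by that much, with 224 CPM in cKO and 410 in WT plasma cells. Stt3a and Stt3b, the catalytic subunits of oligosaccharyltransferase, had log2 ratios of -0.60 and -0.82, and no gene of the translocation list passed 1.5-fold in either direction.

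In the unfolded protein response list 3 of 10 were lower and none higher, beside 15.9% and 16.3% of all measured genes. Atf4, the factor made when the sensor PERK acts, had 243 CPM in cKO and 385 in WT plasma cells. Ppp1r15a, which reverses that arm, had 179 CPM in cKO and 291 in WT plasma cells, and Ddit3 had the values above. Eif2ak3, which encodes PERK, had 657 CPM in cKO and 491 in WT plasma cells (log2 ratio 0.42, 0.13 to 0.72), short of 1.5-fold. In the transport list Copb2, a coat protein of Golgi vesicles, had 84.4 CPM in cKO and 188 in WT plasma cells (log2 ratio -1.14), and Golgb1, a Golgi tether, had 216 in cKO and 138 in WT plasma cells (0.64). Golgb1 was the 1 secretory gene higher by 1.5-fold. Mgat1, an enzyme of N-glycan branching, had a log2 ratio of -0.71 with an interval that includes 0 (-1.50 to 0.05).

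**Figure D4:**
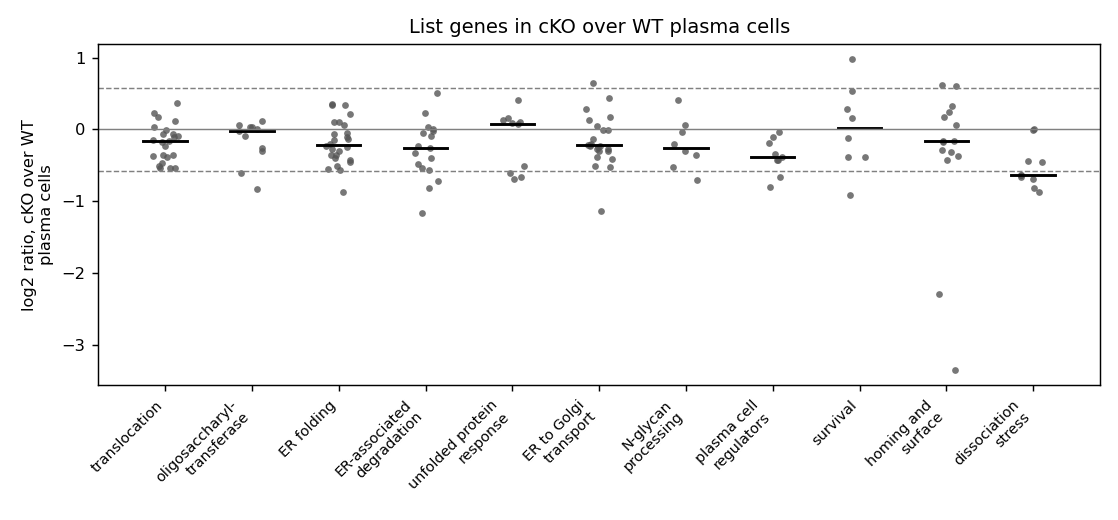
Log2 ratio of cKO over WT plasma cells (vertical axis) for the measured genes of 11 lists; points are genes, black lines are medians, and dashed lines mark 1.5-fold in either direction. Most secretory genes lie between the lines with list medians from -0.26 to 0.08, and the dissociation stress list has the lowest median, -0.63.

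Genes that respond to tissue handling were lower in cKO plasma cells as well. Of 10 dissociation stress genes, 6 were lower by 1.5-fold or more in cKO plasma cells and none was higher, beside 15.9% lower and 16.3% higher among all measured genes. Their median log2 ratio was -0.63. Their summed level was 5824 CPM in cKO plasma cells and 9015 in WT plasma cells, whereas the other cells had 6888 in the cKO and 7063 in the WT library. Fos, an immediate early factor, had 1172 CPM in cKO and 2144 in WT plasma cells (log2 ratio -0.87, -1.05 to -0.70). Jun, its partner, had 1502 CPM in cKO and 2639 in WT plasma cells (-0.81, -0.97 to -0.66). By cell Fos ran from 0 to 8129 CPM with a median of 359 in cKO cells, and from 0 to 8752 with a median of 1001 in WT cells. The part of handling in the lower Atf4, Ppp1r15a and other levels of cKO plasma cells was not tested.

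Among homing receptors and surface molecules Ly6c2 was lower in cKO plasma cells. It encodes a surface protein also found on monocytes. It had 222 CPM in cKO plasma cells and 1096 in WT plasma cells, a log2 ratio of -2.30 (-2.67 to -1.96). By cell it ran from 0 to 4814 CPM with a median of 0 in cKO cells, and from 0 to 7031 with a median of 337 in WT cells. It was detected in 10 of 26 cKO cells and in 23 of 26 WT cells. Of its 84 cKO UMIs, 71 lay in cKO cells 1, 3 and 22, with 30, 19 and 22 UMIs. The WT level was uneven as well: of 350 UMIs, WT cells 12, 15 and 4 held 78, 61 and 56. Without the deepest cell of each library the log2 ratio was -2.83. Other cells had 8.42 CPM in the cKO library and 3.10 in the WT library. Ly6c2 has a near-identical neighbour gene, so its reads may be shared with that copy.

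The integrin by which gut plasma cells enter the mucosa was measured through both of its chains. Itga4, the alpha 4 chain, had 670 CPM in cKO plasma cells and 441 in WT plasma cells, a log2 ratio of 0.60 (0.30 to 0.91). By cell it ran from 0 to 1680 CPM with a median of 665 in cKO cells, and from 0 to 2062 with a median of 251 in WT cells. Itgb7, its beta 7 partner, had 127 CPM in cKO and 81.4 in WT plasma cells (0.63, -0.08 to 1.39). These were the 2 of 15 measured homing and surface genes that were higher by 1.5-fold, a share of 13.3% beside 16.3% of all measured genes. Ccr10 had a log2 ratio of 0.24 (-0.23 to 0.73). Ccr9, the receptor for the small intestinal signal CCL25, had 7 UMIs in cKO and 0 in WT plasma cells, and Itgae, the alpha E integrin chain, had 13 in cKO and 0 in WT plasma cells.

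Cd38, a surface enzyme, was the second homing and surface gene lower by 1.5-fold, with 2 UMIs in cKO and 21 in WT plasma cells (log2 ratio -3.35, -6.78 to -1.61). It was detected in 2 cKO and 6 WT cells. Cxcr3 and Ccr2, chemokine receptors of inflammatory cells, had 0 UMIs in the plasma cells of both libraries. Klf2, a factor of lymphocyte trafficking, had 929 CPM in cKO and 1158 in WT plasma cells (-0.32, -0.53 to -0.10).

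Cd274, which encodes the checkpoint ligand PD-L1, was lower in cKO plasma cells. It had 493 CPM in cKO plasma cells and 977 in WT plasma cells, a log2 ratio of -0.98 (-1.25 to -0.72). By cell it ran from 0 to 1574 CPM with a median of 377 in cKO cells, and from 0 to 5078 with a median of 518 in WT cells. WT cells 6 and 17 were the highest with 61 and 49 UMIs, and no cKO cell was above 1574 CPM. The other cells had 63.2 CPM in the cKO library and 43.2 in the WT library. Il10, a regulatory cytokine that plasma cells can make, had 18 UMIs in cKO and 21 in WT plasma cells, and Gzmb and Csf2 had 0 in both.

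**Figure D5:**
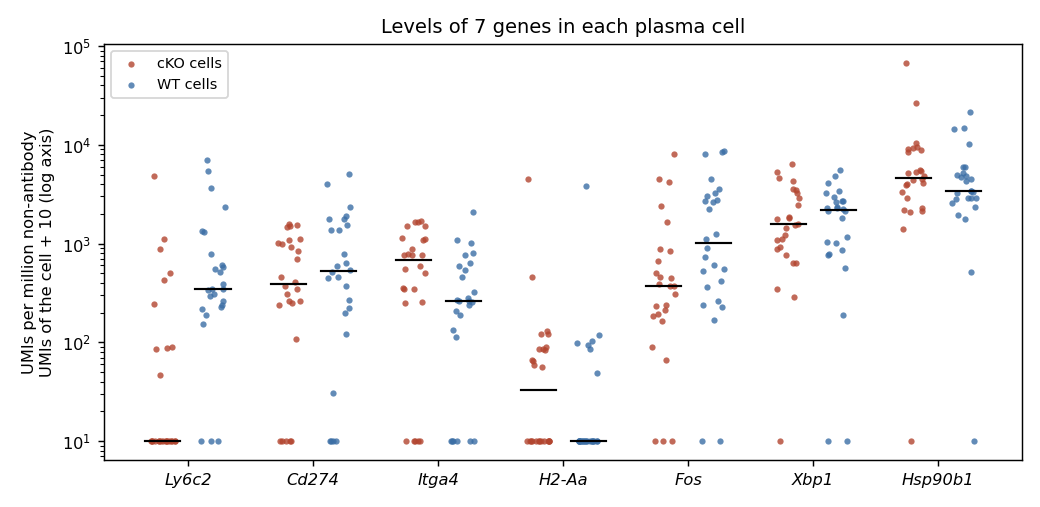
UMIs per 1000000 non-antibody UMIs of the cell, plus 10 (vertical log axis), of 7 genes in each plasma cell, cKO to the left of WT; points are cells and black lines are medians. Ly6c2 is at 0 in most cKO cells and present in 23 WT cells, Itga4 has the higher median in cKO cells, and H2-Aa is high in 1 cell of each library.

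Survival genes showed small and mixed differences. Of 8 measured, 1 was higher and 1 lower by 1.5-fold, that is, 12.5% each way beside 16.3% higher and 15.9% lower among all measured genes. Bcl2, an inhibitor of cell death, had 97.6 CPM in cKO and 185 in WT plasma cells (log2 ratio -0.91, -1.55 to -0.30). Bcl2l11, which encodes the opposing protein BIM, had 417 CPM in cKO and 288 in WT plasma cells (0.53, 0.15 to 0.92). Mcl1, the family member on which plasma cells depend through BCMA, had 586 CPM in cKO and 639 in WT plasma cells. Il6st, the shared signalling chain of interleukin 6 family receptors, had 81.8 CPM in cKO (31 UMIs) and 40.7 in WT plasma cells (13 UMIs). Il6ra, the interleukin 6 receptor itself, had 0 UMIs in cKO and 12 in WT plasma cells.

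Markers of other cell types were low in the plasma cells of both libraries, with epithelial genes the highest. The 10 epithelial markers summed to 2639 CPM in cKO plasma cells and 2482 in WT plasma cells, against 9921 in the other cKO cells and 11877 in the other WT cells. The 8 T cell markers had 10 UMIs in cKO and 8 in WT plasma cells, with Cd3d, Cd3e and Trbc1 at 0 in both. The 7 macrophage markers had 33 UMIs in cKO and 113 in WT plasma cells, of which 100 lay in WT cell 21 and 13 in the other WT cells. Cycling genes rested on few cells: of 57 Mki67 UMIs in WT plasma cells, 52 lay in WT cell 2, and cKO plasma cells had 9.

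The remaining genes that differed most between the libraries were few in UMIs. Outside the antibody genes, and with no cell holding over 25% of the UMIs on the higher side and a plasma cell level no lower than in the other cells, 70 genes at 100 CPM or more were higher and 169 lower with an interval that excluded no difference. Without these filters the lean was the other way: of all 4233 genes measured, 506 were higher and 440 lower with such an interval. The 10 with the largest ratios upward were Bfsp2, Rnf157, Smad4, Ubl3, Pik3r5, Stx18, Chst11, Cops9, Pvt1 and Mndal. Bfsp2, a filament protein best known from the lens, had 124 CPM in cKO plasma cells (47 UMIs) and 40.7 in WT plasma cells (13 UMIs), a log2 ratio of 1.57 (0.70 to 2.62). Smad4, which carries TGF-beta signals to the nucleus, had 158 CPM in cKO and 62.6 in WT plasma cells (1.32). Stx18, a syntaxin of Golgi to ER traffic, had 111 CPM in cKO and 47.0 in WT plasma cells (1.21).

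The 10 with the largest ratios downward were Ly6c2, Pon3, Eml6, Nfe2l1, Inpp5a, H2-Q6, Bcar3, Dcaf10, Ankrd28 and Ccdc88a. Nfe2l1, which encodes NRF1, the factor that raises proteasome genes, had 34.3 CPM in cKO plasma cells (13 UMIs) and 110 in WT plasma cells (35 UMIs), a log2 ratio of -1.64. Ccdc88a, the actin regulator girdin, had 140 CPM in cKO and 366 in WT plasma cells (-1.38). H2-Q6 belongs to a family of near-identical genes, and its assignment is uncertain. All 20 kept their direction without the deepest cell of each library. Their choice by large ratios and by the 25% limit per cell fixed this in advance, so it says nothing of their stability.

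Mtch2, the targeted gene, was sparse in plasma cells, in which the Villin promoter is not known to act. It had 12 UMIs in cKO and 16 in WT plasma cells, that is, 31.7 and 50.1 CPM in the cKO and the WT library (log2 ratio -0.65, -1.87 to 0.51). No difference was detectable at this depth. Of the other genes in the title and topic of the study, Tfrc, the transferrin receptor, had 11 UMIs in cKO and 9 in WT plasma cells, and Gpx4, which removes lipid peroxides, had 82 in each. Fth1, the ferritin heavy chain, had 1789 CPM in cKO and 2316 in WT plasma cells (-0.37, -0.52 to -0.22), and 0.23 without the deepest cells.

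The signals that draw and keep gut plasma cells were compared in the other cells of the libraries. Pigr, the IgA transporter, had 464 CPM in the other cKO cells and 450 in the other WT cells. Ccl28, the ligand of CCR10, had 9.92 CPM in the other cKO cells and 10.3 in the other WT cells. Tnfsf13, which encodes the survival factor APRIL, had 9.35 CPM in the other cKO cells and 9.42 in the other WT cells, and Tnfsf13b, which encodes BAFF, had 8.24 and 8.22 in the other cKO and WT cells. Il6 had 14.2 CPM in the other cKO cells and 5.36 in the other WT cells (log2 ratio 1.40, 1.26 to 1.55). Tgfb1, whose product drives the switch to IgA, had 58.2 CPM in the other cKO cells and 37.2 in the other WT cells (0.65). The other cells differ in makeup between the libraries, with 273 B cells in the cKO and 46 in the WT library, and the part of this was not tested.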

How the data were processed

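The authors deposited raw UMI counts per gene and barcode for 2 libraries, without normalization. Per the file headers, Cell Ranger 7.2.0 wrote them, and mm10 and Seurat 3.0 appear in the submitters' processing notes. Later cell filters and the library chemistry were not given in the sources used here. All values were computed from those counts with python 3.11.15, numpy 2.4.6, scipy 1.17.1 and pandas 2.3.3. Matrices held 6723 cKO and 9445 WT barcodes, with 97364087 UMIs in the cKO and 116066712 in the WT matrix. Ratios are log2 with 0.5 counts added. Intervals are exact (Poisson, Clopper-Pearson or conditional binomial) and cover counting error only. With 1 library per genotype no test was made. Scrublet (scanpy 1.11.5) marked doublets, which were kept. Members and lists were chosen with earlier results of these data known. Named genes were list members at any level, the 20 largest ratios over other cells and the 10 largest each way between libraries. The last 2 groups had to reach 100 CPM (UMIs per 1000000 non-antibody UMIs). Between libraries the interval had to exclude no difference, no cell could hold over 25% of the UMIs on the higher side, and the level had to reach that of the other cells. Mitochondrial, ribosomal, haemoglobin, receptor and sex-linked genes were left out. Of 32285 genes, 32235 matched GENCODE M21.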

Additional observations from a re-analysis of the deposited data

How the results depend on the processing

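No paired analysis was possible because each genotype has 1 library. The 10% limit, applied to the 7 antibody genes, left out WT IgM cell 1, WT cell 25 without a class, and WT lambda cell 14. The WT shares of IgA and kappa moved through these cells. The causes of the other moves were not tested. With at least 10% antibody UMIs (24 cKO and 21 WT cells) the WT share of IgA was 100% and that of kappa 100%. At this limit 7 of 119 secretory genes were higher, beside 15.2% of all genes measured, and the summed secretory log2 ratio was 0.049. The log2 ratio was -1.87 for H2-Aa, -0.37 for H2-Ab1, -0.41 for H2-Eb1, 0.17 for Hspa5 and 0.38 for Creld2. With at least 6 secretory UMIs (26 cKO and 21 WT cells) 0 of 118 secretory genes were higher and 18 lower. Among all genes measured, 16.9% were then higher and 15.5% lower. The summed ratio was -0.22. With the mean of per-cell levels 7 of 121 secretory genes were higher, beside 17.2% of all genes measured, and the summed ratio was 0.092. Xbp1 was then at 0.010, Cd79a at 0.13, Hspa5 at 0.13, Creld2 at 0.039 and Ssr4 at 0.050. Per 1000000 of all UMIs, 39 secretory genes were 2-fold above other cells and the summed ratio was -0.11; it was also -0.11 without the Scrublet doublet and without the deepest cells. Leaving out the deepest cells gave Creld2 0.11 and Fth1 0.23. Leaving out the 2 deepest cells of each library, chosen after seeing the data, gave 2 of 120 secretory genes higher, beside 15.2% of all genes measured. The summed ratio was then -0.062, with H2-Aa at -1.82, H2-Ab1 at -0.49, H2-Eb1 at -0.29 and Creld2 at 0.077. Summed over heavy chain UMIs, the WT share of Igha was 99.2%. Of 102 single genes, 63 had an interval that excluded no difference: of their 630 values under the alternatives 614 kept their direction, 35 of these with an interval that then included no difference, and 16 turned. Of 390 values of the other genes 83 turned. Depth limits genes under about 50 CPM, which rest on fewer than 20 UMIs per library.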
